A study of Canis lupus familiaris with 29 samples.

Results

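The genes described here encode the metalloproteinases that cut the extracellular matrix and cell-surface proteins, and the tissue inhibitors that block them. They were taken by symbol, as every gene named MMP, ADAM, ADAMTS, ADAMTSL or TIMP with a number, and 68 of the 30951 genes in the count table met this rule. They comprised 22 MMPs, 19 ADAMs, 18 ADAMTS, 5 ADAMTSL and 4 TIMPs, and each had at least 1 read in at least 1 sample. Of the 30951 genes, 18239 carried a name, so a family member listed without a symbol was not counted.

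The samples are 19 canine pheochromocytomas and paragangliomas (PPGLs), which arise from chromaffin cells and can make catecholamines, and 10 normal adrenal medullas (NAMs). The tumors came from client-owned dogs of several clinics and were snap-frozen or kept in RNAlater, whereas the NAMs came from healthy research dogs and were snap-frozen, so disease, origin and storage cannot be told apart. The tumors were split into PPGL group 1 with 7 and group 2 with 12 tumors, and this split was drawn from a principal component analysis of these same samples, so that a p-value between them describes the split. Age, sex and breed were not used here.

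MMPs are secreted or membrane-bound enzymes with zinc in the active site that degrade collagens, gelatin, elastin and other matrix proteins, and most are made as inactive precursors. ADAMs are membrane proteins, of which those with a working protease site release growth factors and receptors from the cell surface, and ADAMTS enzymes are secreted and act on procollagens, proteoglycans or von Willebrand factor, while ADAMTSL proteins lack the protease domain and sit in the matrix. TIMPs bind active enzymes and block them, and the balance of enzymes and inhibitors shapes the stroma and vessels of tumors.

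Libraries held 19258054 to 35918182 counts in NAMs, 18493540 to 31919833 in PPGL group 1 and 18208718 to 24569667 in PPGL group 2. Levels are given as TMM-normalized CPM. The floor was set at 3 counts, which over the raw library totals, before TMM scaling, equals 0.0835 to 0.156 CPM for the NAM libraries and 0.0940 to 0.165 CPM for the tumor libraries. This floor covers counting error only.

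The chromaffin genes DBH and CHGB and the other markers of that list were measured in all groups, with a summed median of 30606 CPM in NAMs, 31925 CPM in PPGL group 1 and 43724 CPM in PPGL group 2. Of the 9 chromaffin markers found of 10 listed, 2 were higher and 1 was lower in PPGLs than in NAMs. By median, CHGB was the most abundant of them in NAMs and group 2, and DBH in group 1. CHGA was not found by name. In PPGL group 1, replicate 5 held 2.15 CPM of TH and replicate 3 held 10.8 CPM, and in PPGL group 2 replicate 7 held 32.3 CPM, so this marker of catecholamine synthesis was low in them.

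The libraries labelled NAM also carried adrenal cortex transcripts. The 11 cortical markers found of 12 listed summed to 14133 to 69306 CPM in NAMs (median 37425), 97.8 to 1172 CPM in PPGL group 1 (median 276) and 256 to 34457 CPM in PPGL group 2 (median 3691). By median, CYP17A1 was the most abundant in NAMs and group 2, and STAR in group 1. Of these markers, 10 were lower in PPGLs than in NAMs and 10 were lower in PPGL group 1 than in group 2. Since RNA came from whole tissue pieces, fewer cells of a type and less RNA per cell cannot be told apart.

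A pair of tumors stood apart from the others. PPGL group 2 replicate 11 had a fibroblast marker sum of 25612 CPM, against 6014 CPM in the next tumor and 277 to 676 CPM in NAMs, and a leukocyte marker sum of 1148 CPM, against 455 CPM in the next tumor. This tumor had the highest level among the 19 PPGLs for 20 of the 49 metalloproteinase and inhibitor genes tested. PPGL group 1 replicate 7 had the lowest chromaffin marker sum, 7447 CPM, close to the 10780 CPM of group 1 replicate 5. It held 27.1 CPM of CHGB, against 6827 CPM in that tumor. It was highest for 7 of the 49 genes, against 4 for group 2 replicate 9.

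The first comparison asked which of these genes differ between tumor and normal medulla. After the low-count filter, 49 of the 68 genes were tested between PPGLs and NAMs. By edgeR's quasi-likelihood F test with Benjamini-Hochberg adjustment over all 14766 genes tested, 26 of the 49 (53.1%) passed an adjusted p of 0.05, against 37.5% of all genes tested. Of these, 17 were higher in PPGLs (34.7%, against 22.3% of all genes) and 9 were lower (18.4%, against 15.2%), while 23 did not pass. The median log2 FC of the 49 was 0.52, against 0.13 for all genes tested, and none passed 3 or -3 on the log2 scale. Without both tumors that stood apart these medians were 0.12 and 0.11, with 18 of the 49 higher and 13 lower. In that fit 6054 of all 14648 genes tested were called. Since genes enter the test partly through the group in which they are high, these shares describe the genes tested and not the 68.

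Calls were counted by family. Of the 12 MMPs tested, 8 rose and 1 fell. Of the 15 ADAMTS tested, 6 rose and none fell. An unadjusted p below 0.05 by edgeR was found for 7 of these 15 and for 6829 of all 14766 genes tested. Of the 13 ADAMs tested, 2 rose and 4 fell, of the 5 ADAMTSL genes 1 fell, and of the 4 TIMPs 1 rose and 3 fell. The median log2 FC was 1.12 for MMPs, 0.68 for ADAMTS, 0.52 for ADAMTSL, -0.20 for ADAMs and -1.26 for TIMPs.

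**Figure D1:**
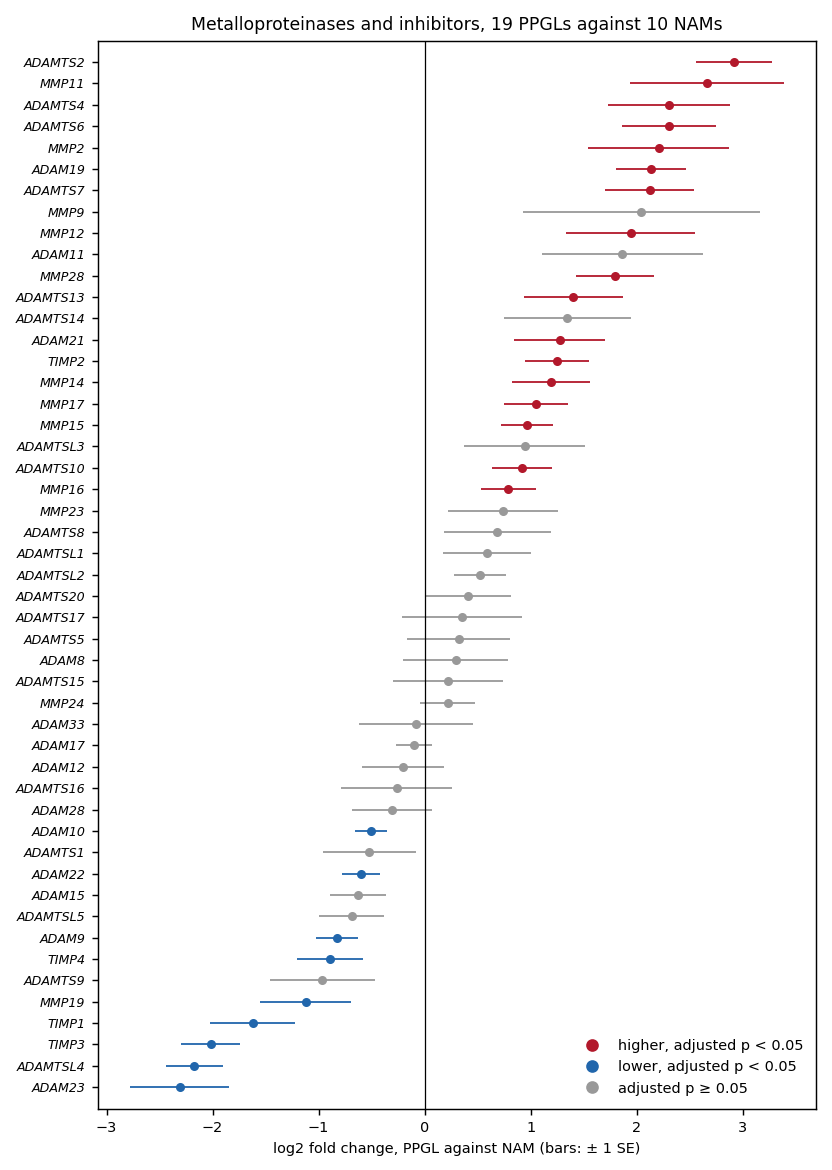
Log2 fold change of the 49 genes tested between 19 PPGLs and 10 NAMs, with bars of 1 SE to each side, in red where higher and blue where lower at an adjusted p below 0.05 and in gray otherwise. ADAMTS2 lies at the top with 2.92 and ADAM23 at the bottom with -2.31, and TIMP1, TIMP3 and TIMP4 lie on the lower side while TIMP2 lies on the upper.

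Of the inhibitors, TIMP1, TIMP2 and TIMP3 led these transcripts in NAMs, and TIMP4 was lower. Per kilobase of annotated exon, the highest median levels in NAMs were those of TIMP1 with 231 CPM per kb, TIMP3 with 124 and TIMP2 with 40.3. In PPGL group 1 the order was led by MMP15 with 60.4 CPM per kb, MMP2 with 46.9, ADAMTSL2 with 37.4 and TIMP2 with 35.0, and TIMP1 stood at 24.7 and TIMP3 at 21.6. In PPGL group 2 it was led by TIMP2 with 112 CPM per kb, TIMP1 with 74.2 and MMP15 with 49.8, ahead of TIMP3 with 35.3. These genes are listed for their levels, after the values were seen, and the differences between neighbours in the order were not tested. The annotated exon length of TIMP2 is 644 bases and that of TIMP4 739 bases, and their levels per kilobase rest on these short models.

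TIMP1 (chrX:41201638-41205310 in CanFam3.1), a secreted inhibitor of most MMPs, measured 130.3 to 477 CPM in NAMs (median 375), 15.2 to 70.7 CPM in PPGL group 1 (median 40.2) and 52.1 to 606 CPM in PPGL group 2 (median 121). All 7 tumors of group 1 and 7 of the 12 of group 2 lay below every NAM, or 11 of the 12 if NAM replicate 4 is set aside, and group 2 replicate 11 alone lay above every NAM. TIMP1 fell in PPGLs, with a log2 FC of -1.62 (SE 0.40, edgeR FDR-adjusted p = 0.00225), which was -2.01 without that tumor.

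TIMP3 (chr10:30627154-30694288), which binds to the matrix and also inhibits ADAM17 and several ADAMTS enzymes, ranged from 87.4 to 271 CPM in NAMs (median 173), from 11.4 to 42.1 CPM in PPGL group 1 (median 30.1) and from 12.1 to 96.1 CPM in PPGL group 2 (median 49.3). Of the 19 tumors, 18 lay below every NAM. Its log2 FC was -2.02 (SE 0.28, edgeR FDR-adjusted p = 3.75e-06).

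TIMP4 (chr20:6399522-6405089), the least abundant of the 4 inhibitors per kilobase in each group, measured 3.11 to 14.7 CPM in NAMs (median 10.7), 1.68 to 15.9 CPM in PPGL group 1 (median 3.58) and 1.64 to 7.57 CPM in PPGL group 2 (median 4.45). The ranges overlapped widely, with 5 of 19 tumors below every NAM, or 11 if NAM replicate 8, the lowest, is set aside. TIMP4 fell with a log2 FC of -0.89 (SE 0.31, edgeR FDR-adjusted p = 0.0247), and this call was lost without NAM replicate 7 (log2 FC -0.82, adjusted p = 0.0524 by edgeR).

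TIMP2 (chr9:2521882-2533989) inhibits MMPs and, bound to MMP14 on the cell surface, also takes part in activating the MMP2 precursor. It measured 17.6 to 34.6 CPM in NAMs (median 25.9), 14.4 to 70.6 CPM in PPGL group 1 (median 22.5) and 37.7 to 193 CPM in PPGL group 2 (median 72.0). Every tumor of group 2 exceeded every NAM, whereas the 7 tumors of group 1 were spread over and around the NAM range, 3 above it and 2 below it, or 4 below it if NAM replicate 8, the lowest, is set aside. TIMP2 rose in PPGLs as a whole, by a log2 FC of 1.25 (SE 0.30, edgeR FDR-adjusted p = 0.00190).

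The cortical marker sums given above moved in the same comparison as the inhibitors. With the mean log2 level of the cortical markers as a covariate in the same edgeR fit, the log2 FC of TIMP1 was -0.29 (FDR-adjusted p = 0.777), that of TIMP3 -1.20 (adjusted p = 0.0253), that of TIMP4 -1.03 (adjusted p = 0.147) and that of TIMP2 1.61 (adjusted p = 0.00973). The cortical score itself differs between NAMs and PPGLs, so score and tissue cannot be fully told apart in that fit.

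**Figure D2:**
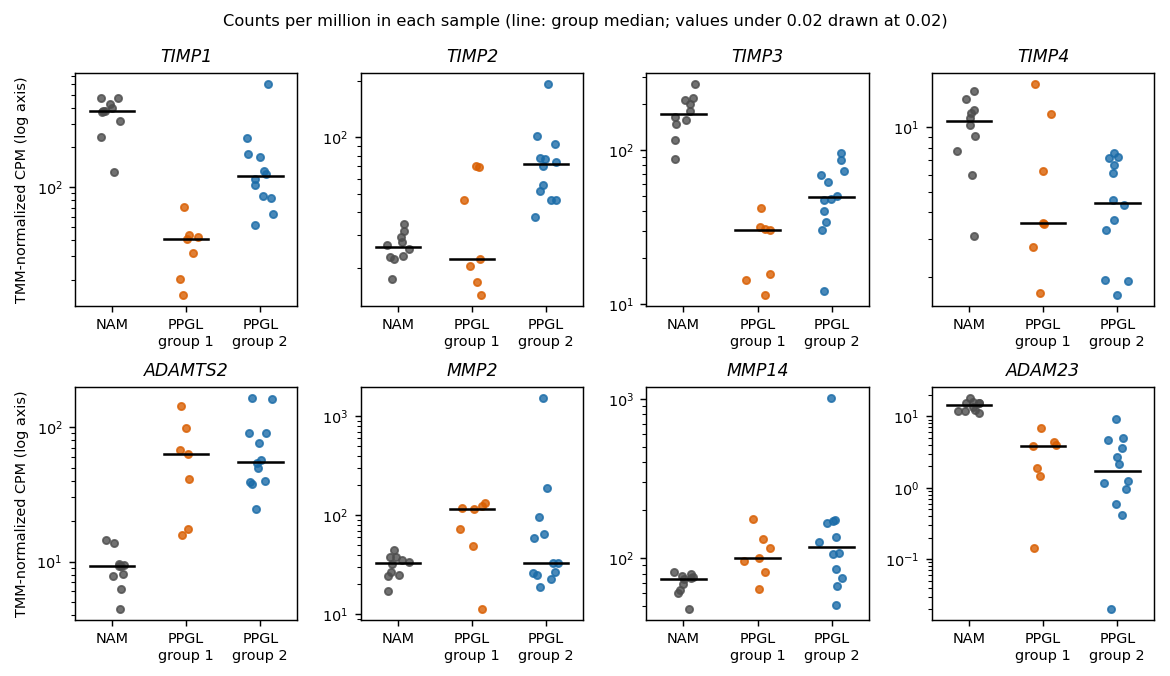
TMM-normalized CPM on a log axis of the 4 inhibitors and of ADAMTS2, MMP2, MMP14 and ADAM23 in each of the 29 samples, by tissue and tumor group, with a line at each group median. For ADAMTS2 all 19 PPGLs lie above the highest NAM (14.6 CPM), for ADAM23 all lie below the lowest NAM (11.1 CPM), and 1 tumor of group 2 stands apart for MMP2 and MMP14.

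ADAMTS2 (chr11:2280108-2502635), which removes the N-terminal propeptide of fibrillar procollagens, measured 4.43 to 14.6 CPM in NAMs (median 9.26), 15.7 to 143 CPM in PPGL group 1 (median 63.4) and 24.7 to 166 CPM in PPGL group 2 (median 55.3). It was the only 1 of the 49 genes for which every PPGL lay above every NAM, against 0.223% of all genes tested. ADAMTS2 had the largest log2 FC of the 49, 2.92 (SE 0.36, edgeR FDR-adjusted p = 8.46e-07). ADAMTS14, which has the same kind of substrate, did not pass, with a log2 FC of 1.34 (SE 0.60, edgeR FDR-adjusted p = 0.0768), but did so by DESeq2's Wald test (adjusted p = 0.0431). Its log2 FC was 0.74 without PPGL group 2 replicate 11, and it is named after its value was seen.

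Both gelatinases were measured. MMP2 (chr2:60471257-60494113), gelatinase A, ranged from 17.2 to 44.6 CPM in NAMs (median 32.9), from 11.3 to 133 CPM in PPGL group 1 (median 115) and from 18.8 to 1540.3 CPM in PPGL group 2 (median 32.96). In group 1, 6 of 7 tumors were above every NAM, while the median of group 2 equalled that of the NAMs closely and 5 of its 12 tumors were above every NAM. The highest value, in group 2 replicate 11, made up 55.9% of the CPM summed over the 19 tumors. MMP2 had a log2 FC of 2.21 (SE 0.67, edgeR FDR-adjusted p = 0.0102), which was 1.11 (edgeR FDR-adjusted p = 0.0185) without that tumor, and its Mann-Whitney test gave an adjusted p of 0.198. With the cortical covariate MMP2 did not pass (log2 FC 1.30, edgeR FDR-adjusted p = 0.456).

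MMP9, gelatinase B, was low in most samples, at 0 to 4.41 CPM in NAMs (median 0.159), 0.0471 to 49.4 CPM in PPGL group 1 (median 0.758) and 0 to 21.2 CPM in PPGL group 2 (median 0.812). PPGL group 1 replicate 7 held 53.3% of the MMP9 CPM of all tumors. MMP9 did not pass (log2 FC 2.04, SE 1.12, edgeR FDR-adjusted p = 0.151), and its log2 FC was 1.01 without that tumor and 0.12 without both tumors that stood apart.

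Of the 6 membrane-type MMPs, 5 were tested and 4 rose. MMP14 (chr8:3183606-3194122), which activates the MMP2 precursor at the cell surface, measured 47.8 to 82.2 CPM in NAMs (median 74.2), 64.2 to 176 CPM in PPGL group 1 (median 101) and 50.4 to 1019 CPM in PPGL group 2 (median 117). More than the NAM maximum was found in 14 of the 19 tumors, with 1 of group 2, replicate 11, far above the rest. The log2 FC was 1.19 (SE 0.37, edgeR FDR-adjusted p = 0.0121) and was 0.68 (edgeR FDR-adjusted p = 0.00318) without that tumor. The other 3 that rose, MMP15, MMP16 and MMP17, had a log2 FC of 0.79 to 1.05, and MMP24 did not pass with a log2 FC of 0.22. None of the 4 passed with the cortical covariate, MMP14 having a log2 FC of 1.21 (edgeR FDR-adjusted p = 0.158) and the others 0.86 to 0.90 (edgeR FDR-adjusted p = 0.0716 to 0.165).

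MMP11 (chr26:28727332-28741415), a stromelysin known from the stroma of tumors, ranged from 0.725 to 2.51 CPM in NAMs (median 1.60), from 1.17 to 37.5 CPM in PPGL group 1 (median 3.34) and from 1.56 to 97.7 CPM in PPGL group 2 (median 2.81). Above every NAM were 11 of the 19 tumors, and the pair that stood apart supplied the highest value of each group. MMP11 had a log2 FC of 2.66 (SE 0.73, edgeR FDR-adjusted p = 0.00488), 1.71 without group 2 replicate 11 and 1.06 (edgeR FDR-adjusted p = 0.00719) without both. It was 1.72 (edgeR FDR-adjusted p = 0.270) with the cortical covariate and did not pass. Its exons overlap those of SMARCB1 on the same strand.

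MMP12, the elastase of macrophages, measured 0.4934 to 4.60 CPM in NAMs (median 1.97), 0.188 to 9.37 CPM in PPGL group 1 (median 2.01) and 1.88 to 44.7 CPM in PPGL group 2 (median 10.5). Most of group 2, 9 of 12 tumors, lay above every NAM, and 1 of 7 in group 1 did. MMP12 rose by a log2 FC of 1.94 (SE 0.61, edgeR FDR-adjusted p = 0.0125), while a Mann-Whitney test gave an adjusted p of 0.0581. The leukocyte markers, of which 9 of 10 were found and 8 tested, were higher for 2 and lower for 2, with a summed median of 305 CPM in NAMs, 176 CPM in group 1 and 161 CPM in group 2. By median, CD163 was the most abundant of them in NAMs, and CSF1R in each tumor group. The part of the leukocyte markers in the level of MMP12 was not tested.

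MMP28, or epilysin, ranged from 3.43 to 15.7 CPM in NAMs (median 5.80), from 3.20 to 25.3 CPM in PPGL group 1 (median 9.98) and from 13.2 to 56.0 CPM in PPGL group 2 (median 25.1). In group 2, 11 of 12 tumors were above every NAM, and 3 of 7 were in group 1. The gene rose by a log2 FC of 1.80 (SE 0.37, edgeR FDR-adjusted p = 0.000414).

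MMP19, a secreted MMP that cuts basement membrane proteins, was the only 1 of the 12 tested MMPs that fell. It measured 17.3 to 54.1 CPM in NAMs (median 34.4), 1.34 to 16.9 CPM in PPGL group 1 (median 7.94) and 3.34 to 91.7 CPM in PPGL group 2 (median 11.8). All tumors of group 1 and 7 of 12 of group 2 were below every NAM, and replicate 11 of group 2 was the 1 tumor above them. MMP19 had a log2 FC of -1.12 (SE 0.43, edgeR FDR-adjusted p = 0.0383) and -1.56 without that tumor. This call was lost without NAM replicate 6, 7, 8 or 9, PPGL group 1 replicate 4, or PPGL group 2 replicate 3, 8 or 12, each time with a log2 FC of -1.04 to -1.10 and an edgeR FDR-adjusted p between 0.0504 and 0.0719. It was also lost with the cortical covariate (log2 FC -0.53, edgeR FDR-adjusted p = 0.658).

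Among the ADAMTS that cut proteoglycans, 1 of 7 passed. ADAMTS4 (chr38:21284330-21292437), an aggrecanase, measured 4.31 to 16.3 CPM in NAMs (median 7.69), 4.10 to 36.9 CPM in PPGL group 1 (median 14.8) and 8.70 to 209 CPM in PPGL group 2 (median 27.1). About as many tumors lay within the NAM range as above it, with 9 of 19 above every NAM, or 13 if NAM replicate 3, the highest, is set aside. ADAMTS4 rose by a log2 FC of 2.30 (SE 0.58, edgeR FDR-adjusted p = 0.00248). The other 6 had a log2 FC of -0.96 to 0.68. In this role ADAMTS1 and ADAMTS9, named after their values were seen, did not pass, but ADAMTS1 had a log2 FC of -0.96 (edgeR FDR-adjusted p = 0.0308) without PPGL group 1 replicate 7, and ADAMTS9 had a log2 FC of -1.35 (edgeR FDR-adjusted p = 0.0144) without PPGL group 2 replicate 11. Both passed by the Mann-Whitney test (adjusted p = 0.0328 and 0.0420) and, by edgeR, without both tumors that stood apart (FDR-adjusted p = 0.00177 and 0.0182).

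Of the remaining ADAMTS, 4 of 6 tested rose. ADAMTS6 (chr2:50955481-51236421) measured 1.30 to 3.54 CPM in NAMs (median 2.501), 0.753 to 15.9 CPM in PPGL group 1 (median 5.04) and 3.84 to 35.8 CPM in PPGL group 2 (median 14.02). All 12 tumors of group 2 and 5 of 7 of group 1 exceeded every NAM, and the other 2 of group 1 lay below every NAM. ADAMTS6 had a log2 FC of 2.30 (SE 0.44, edgeR FDR-adjusted p = 0.000207).

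ADAMTS7, which cuts cartilage oligomeric matrix protein, was at 0.610 to 2.402 CPM in NAMs (median 1.07), 2.16 to 11.9 CPM in PPGL group 1 (median 4.38) and 0.487 to 18.5 CPM in PPGL group 2 (median 4.58). It was above every NAM in 14 of 19 tumors, 6 of them in group 1 and 8 in group 2. Its log2 FC was 2.12 (SE 0.42, edgeR FDR-adjusted p = 0.000278), and its exons overlap those of TBC1D2B on the opposite strand. With the cortical covariate it did not pass (log2 FC 1.47, edgeR FDR-adjusted p = 0.0766). As the strand setting of the counting is not given in the sources used here, values of these overlapping genes are uncertain. Exon overlap touched 6 of the 68 genes.

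ADAMTS13, the protease of von Willebrand factor, was at 0.810 to 1.77 CPM in NAMs (median 1.29), 1.77 to 12.1 CPM in PPGL group 1 (median 3.76) and 0.337 to 8.27 CPM in PPGL group 2 (median 1.48). All 7 tumors of group 1 lay above every NAM and 4 of 12 of group 2 did, with 2 of group 2 below every NAM. With a log2 FC of 1.402 it rose (SE 0.47, edgeR FDR-adjusted p = 0.0184), and with the cortical covariate added it turned to -0.75 (edgeR FDR-adjusted p = 0.282). A Mann-Whitney test gave an adjusted p of 0.0855.

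ADAM19 (chr4:52650162-52729843), a sheddase of neuregulin, measured 4.84 to 16.7 CPM in NAMs (median 9.08), 13.3 to 47.8 CPM in PPGL group 1 (median 25.1) and 15.7 to 133 CPM in PPGL group 2 (median 37.1). Only 2 of the 19 tumors fell within the NAM range. ADAM19 rose with a log2 FC of 2.13 (SE 0.33, edgeR FDR-adjusted p = 1.71e-05) and 2.26 (edgeR FDR-adjusted p = 0.00111) with the cortical covariate.

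ADAM21, also with a protease site, is named after its value was seen. It was low, at 0.104 to 0.717 CPM in NAMs, 0.355 to 1.04 CPM in PPGL group 1 and 0.0941 to 1.97 CPM in PPGL group 2. The lowest of these values were at or under the floor of 3 counts. Of the 19 tumors, 4 lay above every NAM and 2 below, or 15 above if NAM replicate 2, the highest, is set aside. ADAM21 rose by a log2 FC of 1.27 (edgeR FDR-adjusted p = 0.0196). With the cortical covariate its log2 FC was 1.42 and did not pass (edgeR FDR-adjusted p = 0.0816). ADAM10, a cleaver of Notch and amyloid precursor protein, measured 78.2 to 123 CPM in NAMs (median 88.2), 29.4 to 82.9 CPM in PPGL group 1 (median 63.4) and 43.8 to 107 CPM in PPGL group 2 (median 63.9). Below every NAM were 14 of the 19 tumors, and none was above. It fell with a log2 FC of -0.50 (SE 0.15, edgeR FDR-adjusted p = 0.00999), and with the cortical covariate it did not pass (-0.38, edgeR FDR-adjusted p = 0.270). ADAM17, the enzyme that releases tumor necrosis factor, was at 17.4 to 38.7 CPM in NAMs (median 27.8), 19.8 to 54.4 CPM in PPGL group 1 (median 25.3) and 14.9 to 45.7 CPM in PPGL group 2 (median 24.1), with a log2 FC of -0.10 (SE 0.17, edgeR FDR-adjusted p = 0.685). The 3 ranges of ADAM17 overlapped almost in full. ADAM15, named after its value was seen, did not pass by edgeR (log2 FC -0.63, FDR-adjusted p = 0.0612), but it passed by DESeq2's Wald test (adjusted p = 0.0362), by the Mann-Whitney test (adjusted p = 0.0135) and, by edgeR, without PPGL group 1 replicate 2 (-0.70, adjusted p = 0.0344), among other settings.

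ADAM9 (chr16:26414583-26551122), also a sheddase, had 52.1 to 142 CPM in NAMs (median 88.0), 28.8 to 57.3 CPM in PPGL group 1 (median 36.3) and 34.9 to 123 CPM in PPGL group 2 (median 60.7). Of the 19 tumors 9 lay below every NAM, 6 of the 7 in group 1 and 3 of the 12 in group 2, or 7 and 5 if NAM replicate 3, the lowest, is set aside. ADAM9 fell, with a log2 FC of -0.83 (SE 0.20, edgeR FDR-adjusted p = 0.00165), and it was -0.20 (edgeR FDR-adjusted p = 0.648) with the cortical covariate.

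ADAM23 (chr37:14996854-15161008) and ADAM22 have no working protease site and bind the secreted neuronal protein LGI1. ADAM23 measured 11.1 to 18.2 CPM in NAMs (median 14.5), 0.141 to 6.92 CPM in PPGL group 1 (median 3.85) and 0 to 9.03 CPM in PPGL group 2 (median 1.69). All 19 tumors lay below every NAM, and 1 tumor of group 2 had no read of it. Its log2 FC was -2.31 (SE 0.46, edgeR FDR-adjusted p = 0.000336).

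ADAM22 was at 24.6 to 69.3 CPM in NAMs (median 43.6), 21.98 to 57.5 CPM in PPGL group 1 (median 35.8) and 18.1 to 46.6 CPM in PPGL group 2 (median 24.5). The ranges overlapped, and 7 of 19 tumors lay below every NAM, or 13 if NAM replicate 10, the lowest, is set aside. ADAM22 fell with a log2 FC of -0.60 (SE 0.18, edgeR FDR-adjusted p = 0.00915).

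ADAMTSL4 (chr17:59736534-59746980), a matrix protein that binds fibrillin microfibrils, measured 34.1 to 64.3 CPM in NAMs (median 54.7), 5.99 to 22.2 CPM in PPGL group 1 (median 7.72) and 2.88 to 23.8 CPM in PPGL group 2 (median 13.7). It and ADAM23 were the 2 of the 49 genes for which every PPGL lay below every NAM, against 0.481% of all genes tested. The log2 FC of ADAMTSL4 was -2.17 (SE 0.27, edgeR FDR-adjusted p = 8.97e-07) and -2.08 (edgeR FDR-adjusted p = 0.00213) with the cortical covariate. The other 4 ADAMTSL genes did not pass, with a log2 FC of -0.69 to 0.94, but ADAMTSL5 passed by DESeq2's Wald test (adjusted p = 0.0472), by the Mann-Whitney test (adjusted p = 0.00909) and, by edgeR, without PPGL group 1 replicate 2 (-0.85, FDR-adjusted p = 0.0171) or group 2 replicate 11 (FDR-adjusted p = 0.0406), and ADAMTSL2 without PPGL group 1 replicate 7 (0.59, edgeR FDR-adjusted p = 0.0270). Both are named after their values were seen.

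**Figure D3:**
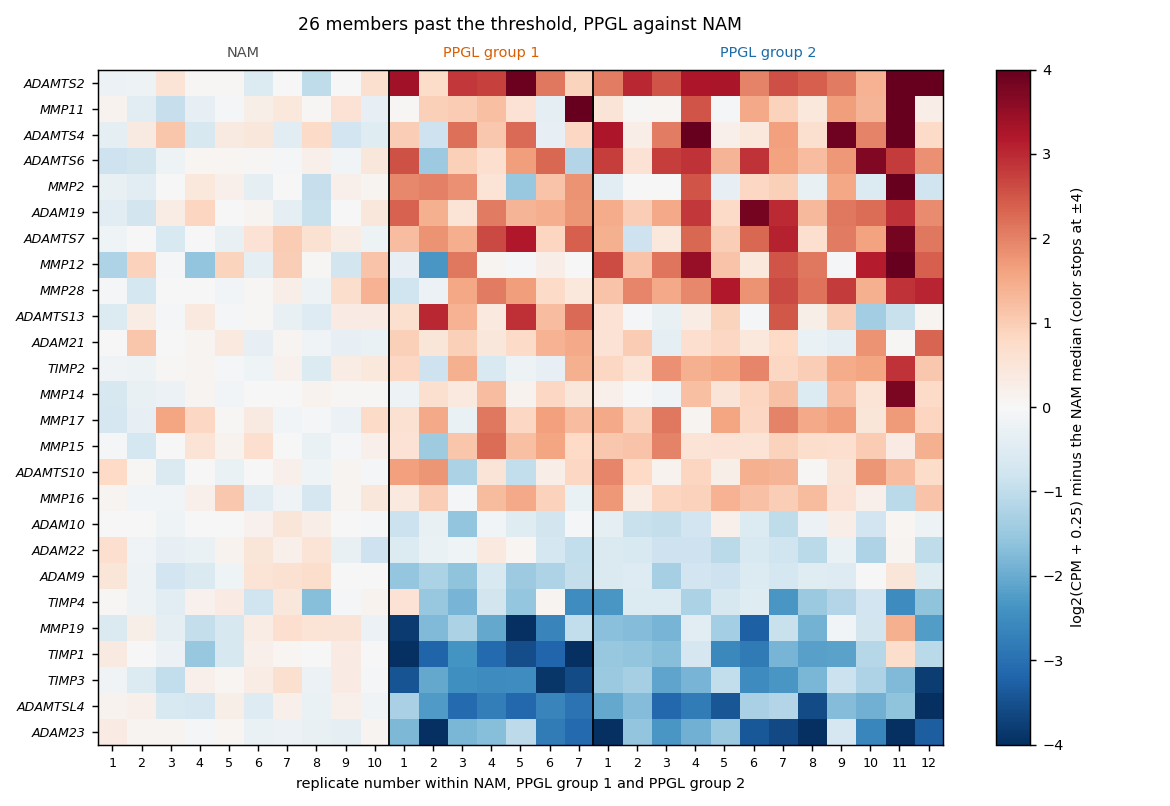
Log2 CPM minus the NAM median for the 26 genes that passed the test between PPGLs and NAMs, with samples in columns by group and replicate and genes ordered by log2 FC from ADAMTS2 (2.92) to ADAM23 (-2.31). Color stops at the ends of the scale.

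A list of 20 activators, inhibitors and partners of these enzymes held 17 genes found by name and 16 tested. Of the 16, 6 rose in PPGLs, 3 fell and 7 did not pass, with a median log2 FC of 0.45, where 22.3% of all genes tested were higher and 15.2% lower. Those that rose include PLAU, which makes plasmin and so helps to activate MMPs, with a log2 FC of 2.09 (SE 0.51, edgeR FDR-adjusted p = 0.00189; 1.43 without PPGL group 2 replicate 11), and RECK, a membrane-anchored MMP inhibitor, with 1.28 (SE 0.39, edgeR FDR-adjusted p = 0.0113). RHBDF2, a partner of ADAM17, rose by 1.501 (SE 0.33, edgeR FDR-adjusted p = 0.000864). Those that fell include FURIN, a protease that removes the propeptide of several ADAMs and of MMP14, with a log2 FC of -0.77 (SE 0.23, edgeR FDR-adjusted p = 0.00837), and LGI1, the ligand of ADAM22 and ADAM23, with -1.59 (SE 0.57, edgeR FDR-adjusted p = 0.0290). These 5 were named after their values were seen.

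Some stromal markers also differed between PPGLs and NAMs, in either direction. Of 8 fibroblast markers, 5 were higher in PPGLs and none lower, with a median log2 FC of 2.20, and their sums had a median of 424 CPM in NAMs, 512 CPM in PPGL group 1 and 978 CPM in PPGL group 2. By median, COL1A2 was the most abundant of the 8 in NAMs (161 CPM) and group 2 (310 CPM), and COL3A1 in group 1 (214 CPM). Without PPGL group 2 replicate 11, 4 of the 8 were higher and 1 was lower, with a median log2 FC of 1.15. Of 6 mural cell markers 2 were higher, and none without that tumor, and of 6 endothelial markers 3 were lower. Of 5 Schwann cell markers 4 were tested and none passed, with a median log2 FC of -1.30 and sums with a median of 88.6 CPM in NAMs, 22.4 CPM in group 1 and 12.0 CPM in group 2. Of 4 hepatocyte markers found, 3 were tested and 1 was higher, though not without that tumor, and 2 were lower. Their part in the levels of the metalloproteinases was not tested.

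The remaining 19 genes had too few counts to be tested between tumors and NAMs. Of these, 10 were at or under 3 counts in every NAM and 17 had more than 3 counts in at least 1 PPGL. They include all 3 collagenases and both matrilysins of the list.

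The second comparison asked which of these genes separate PPGL group 1 from group 2. Of the 52 genes tested, 7 passed an adjusted p of 0.1 (13.5%), against 6.92% of all 14666 genes tested. Higher in group 1 were 2 (3.85%, against 3.97% of all genes) and lower were 5 (9.62%, against 2.95%), and 45 did not pass. The median log2 FC of the 52, group 1 minus group 2, was -0.59, against 0.04 for all genes, and 35 of the 52 were negative. This median was -0.16 over the 50 genes tested without group 2 replicate 11 and -0.29 without both tumors that stood apart. No gene of the 52 had its groups apart, where 0.0409% of all genes lay wholly higher and 0.15% wholly lower in group 1.

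TIMP1 differed most firmly. Its 7 values in group 1 lay between 15.2 and 70.7 CPM and its 12 in group 2 between 52.1 and 606 CPM, with 6 of the 7 below every tumor of group 2. The log2 FC was -2.11 (SE 0.46, edgeR FDR-adjusted p = 0.0187), -1.70 without group 2 replicate 11, and it passed when any 1 of the 19 tumors was left out.

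TIMP3 was lower in group 1 by the same test, with a log2 FC of -1.11 (SE 0.34, edgeR FDR-adjusted p = 0.0768), though only 1 tumor of group 1 lay below all of group 2. This call was lost without group 1 replicate 1, 6 or 7 or group 2 replicate 1, 2, 4, 5, 9 or 10, with a log2 FC of -0.98 to -1.12 and edgeR FDR-adjusted p up to 0.161. It was also lost without both tumors that stood apart (log2 FC -1.01, edgeR FDR-adjusted p = 0.173) and by the Mann-Whitney test (adjusted p = 0.155). TIMP2 did not pass (log2 FC -1.05, SE 0.37, edgeR FDR-adjusted p = 0.115), but did so by DESeq2's Wald test (adjusted p = 0.0520) and by edgeR without group 1 replicate 3 (FDR-adjusted p = 0.0779). TIMP4 had a log2 FC of 0.48 (SE 0.43, edgeR FDR-adjusted p = 0.582).

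ADAM9 was lower in group 1, where it lay between 28.8 and 57.3 CPM, than in group 2, where it lay between 34.9 and 123 CPM. The ranges overlapped, with 3 of 7 tumors of group 1 below all of group 2. The log2 FC was -0.74 (SE 0.21, edgeR FDR-adjusted p = 0.0559), and it passed when any 1 of the tumors was left out.

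MMP12 and MMP28 were the only MMPs of the 14 tested that passed, both lower in group 1. For MMP12 the log2 FC was -2.26 (SE 0.66, edgeR FDR-adjusted p = 0.0645). The call was lost without group 1 replicate 4 or 7 or group 2 replicate 4, with a log2 FC of -2.20, -2.16 and -2.14 (edgeR FDR-adjusted p = 0.102, 0.131 and 0.101). For MMP28 the log2 FC was -1.29 (SE 0.39, edgeR FDR-adjusted p = 0.0739), with 4 of 7 tumors of group 1 below all of group 2. This call was lost without group 1 replicate 2, 6 or 7 or group 2 replicate 5 or 12 (log2 FC -1.16 to -1.25, edgeR FDR-adjusted p up to 0.156). Neither passed without both tumors that stood apart (log2 FC -1.82, edgeR FDR-adjusted p = 0.170 for MMP12, and -1.14 and 0.187 for MMP28). MMP28 did not pass by the Mann-Whitney test (adjusted p = 0.173).

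Each of the 2 genes higher in group 1 rested on 1 tumor. ADAM11 (chr9:18710979-18728941), an ADAM without a working protease site, measured 0.642 to 58.7 CPM in group 1 (median 1.94) and 0.451 to 4.89 CPM in group 2 (median 1.01), and replicate 7 held 69.1% of the CPM of all tumors. Its log2 FC was 2.73 (SE 0.78, edgeR FDR-adjusted p = 0.0585), and 0.15 (edgeR FDR-adjusted p = 0.920) without that tumor. ADAMTS16 measured 0.190 to 9.79 CPM in group 1 (median 1.36) and 0.226 to 1.75 CPM in group 2 (median 0.430). Its log2 FC was 2.01 (SE 0.58, edgeR FDR-adjusted p = 0.0592), and 0.98 (edgeR FDR-adjusted p = 0.284) without group 1 replicate 2. Neither passed by the Mann-Whitney test (adjusted p = 0.595 for ADAM11 and 0.339 for ADAMTS16). Between PPGLs and NAMs, ADAM11 had a log2 FC of 1.87 (SE 0.76, edgeR FDR-adjusted p = 0.0512), and this was 0.25 (edgeR FDR-adjusted p = 0.590) without group 1 replicate 7. It passed without group 2 replicate 12 (edgeR FDR-adjusted p = 0.0428) and when most other single tumors were left out in turn. With library size alone it also passed (edgeR FDR-adjusted p = 0.0388). Named after its value was seen, ADAMTS13 did not pass between the groups (log2 FC 1.54, edgeR FDR-adjusted p = 0.103) but did so without group 2 replicate 7 (log2 FC 2.01, edgeR FDR-adjusted p = 0.0231).

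The gelatinases and MMP14 did not pass between the groups. MMP2 had a log2 FC of -1.01 (SE 0.89, edgeR FDR-adjusted p = 0.5682), which turned to 0.72 without group 2 replicate 11. MMP9 had one of 1.18 (SE 1.22, edgeR FDR-adjusted p = 0.633), which turned to -2.23 without group 1 replicate 7. MMP14 had -0.80 (SE 0.50, edgeR FDR-adjusted p = 0.401), which was -0.06 without group 2 replicate 11. ADAM10 and ADAM17 had a log2 FC of -0.15 and 0.15.

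The cortical markers were also lower in group 1. With their score as a covariate, edgeR called none of the 52 genes and none of all 14666 genes at an adjusted p of 0.1, with 21 of the 52 and 1481 of all at an unadjusted p below 0.05. The log2 FC of TIMP1 was then -2.46 and that of ADAM9 -0.58 (edgeR FDR-adjusted p = 0.175 and 0.670). It was -3.82 for MMP2, -1.91 for MMP14 and -2.28 for TIMP2 (edgeR FDR-adjusted p = 0.212, 0.352 and 0.152). The score ran from 0.0435 to 3.79 in group 1 and from 3.08 to 9.93 in group 2. Score and group therefore cannot be fully told apart in that fit. No fibroblast, mural, endothelial, leukocyte, Schwann or chromaffin marker passed between the groups, and 1 hepatocyte marker was lower in group 1. The median log2 FC was -2.05 for the 8 fibroblast markers, of which 5 had an unadjusted p below 0.05 by edgeR, and -0.78 for the leukocyte markers, of which 3 of 8 tested did. These medians were -0.87 and -0.32 without group 2 replicate 11, and -1.21 and -0.27 without both tumors that stood apart. The part of these markers in the result was not tested.

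These values are levels of RNA in whole tissue pieces, and no protein or enzyme activity was measured. Most MMPs are made as inactive precursors, so a level of RNA does not give the amount of active enzyme. The comparisons use the same tumors, and tumor and normal tissue differ in origin and storage as well as in disease. Calls in the split of the tumors rest on 7 against 12 samples, and only TIMP1 and ADAM9 passed when any 1 tumor was left out.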

How the data were processed

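The RNA sequencing data of 29 samples were used as the authors deposited them, as a raw count of exon reads per Ensembl gene and sample, from stranded mRNA libraries aligned to CanFam3.1 with STAR. The submitters' processing notes list HTSeq, whereas the table is labelled as coming from another counter, and the counter's strand setting and its handling of reads that fit several genes are not given in the sources used here. Samples were grouped by their titles, and no 2 columns were identical.

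Counts were filtered with edgeR's filterByExpr (minimum count 10, minimum total 15), normalized by TMM and tested over all genes with the quasi-likelihood F test, PPGL against NAM and PPGL group 1 against group 2, without covariates. Benjamini-Hochberg adjustment was over all genes tested, at 0.05 and 0.1. Log2 FCs used a prior count of 0.125. The SE of a log2 FC was derived from the test, as its absolute value over the square root of the F statistic. R 4.3.3, edgeR 4.0.16, DESeq2 1.42.0, limma 3.58.1, Python 3.11.15, scipy 1.17.1 and matplotlib 3.10.9 were used, and the scripts were tested on simulated data.

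Genes described by name are TIMP1 to TIMP4, MMP2, MMP9, MMP14, ADAM10 and ADAM17 whatever their values, and the 10 genes of each comparison and direction that passed the threshold with the greatest fold. Others are named after their values were seen. The cortical score is the mean log2 CPM (prior count 2) of the cortical markers. Alternatives were DESeq2's Wald test, its size factors or library size alone, no filter, a Mann-Whitney U test on CPM, the replicate number as a block, the cortical score as a covariate, each sample left out in turn and, chosen after seeing the data, both tumors that stand apart left out. The genes, lists and tests were chosen with earlier results of these data known. Clinical data were not used here. Results on a few genes are not reported here.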

Additional observations from a re-analysis of the deposited data

Results flagged for a closer look

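Within groups of up to 10 samples, 50 sets of values of the 25 genes described by name were examined for a sample far from the others on the log2 CPM scale, and 4 were found, where chance marks about 1 set in 20. ADAM11 in PPGL group 1 replicate 7 had a log2 CPM of 5.88, against 1.17 in the nearest tumor of the group. MMP11 in the same tumor had a log2 CPM of 5.23, against 2.03 in the nearest. MMP2 in PPGL group 1 replicate 5 had a log2 CPM of 3.51, against 5.61 in the nearest tumor. TIMP1 in NAM replicate 4 had a log2 CPM of 7.03, against 7.90 in the nearest NAM.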

How the results depend on the processing

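Between PPGLs and NAMs, the 23 named genes kept their direction and their side of the threshold with DESeq2's Wald test, DESeq2's size factors, library size alone, no low-count filter and both tumors that stand apart left out. With the cortical score as a covariate, 8 genes were higher and 5 lower (8 and 4 shared with the calls without it), and ADAMTS13 turned to -0.75. That fit called 2005 of all 14766 genes tested, against 5541 without the score. Between the groups the counts of genes higher and lower in group 1 were 0 and 0 with the cortical score, 0 and 3 by the Mann-Whitney test, 2 and 9 by DESeq2's Wald test and 2 and 2 without both tumors, an alternative chosen after seeing the data. Of all 14666 genes tested, 0, 398 and 1793 were called in the first 3 of these settings. Without both tumors 504 of all 14725 were called. Leaving out each sample in turn gave 17 to 18 higher and 7 to 11 lower in PPGLs, and 1 to 3 higher and 2 to 7 lower in group 1. Over all genes tested, these fits called 4954 to 5790 between PPGLs and NAMs and 525 to 1218 between the groups. By edgeR without a block, 16 of the 52 genes had an unadjusted p below 0.05 between the groups, and by the Mann-Whitney test 11. Of all 14666 genes tested, 2845 did so by edgeR and 2110 by the Mann-Whitney test. Between the groups the log2 FC of MMP2 turned to 0.70 by DESeq2's Wald test, 0.67 without both tumors and 0.72 without group 2 replicate 11, and that of MMP9 to -1.10 by DESeq2's Wald test, -1.13 with the cortical score, -1.25 without both tumors and -2.23 without group 1 replicate 7. ADAM11 turned to -0.26 and ADAM17 to -0.40 with the cortical score, and ADAM17 to -0.045 without group 1 replicate 7. Across leave-one-out fits the group log2 FC ranged from -1.14 to 0.72 for MMP2, from -2.23 to 2.18 for MMP9 and from -0.045 to 0.25 for ADAM17. The cause was not tested. Genes at or under the floor of 3 counts could not be compared at this depth.

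The replicate numbers count different animals in each group. Of 24 pairs of samples with the same number, 2 had deviations from the group means that correlated over 0.1 (range -0.23 to 0.25), and 4 of 27 samples correlated best with their own number. With the number as a replicate block, 12 rose and 12 fell in PPGLs, where 4653 of all 14766 genes were called. MMP2, MMP12, ADAMTS4, ADAMTS13 and ADAM21 no longer passed, with a log2 FC of 0.91, 1.32, 1.43, 1.06 and 0.998. Between the groups the blocked fit called 0 and 0 of the 52, and 47 of all 14666 genes. At an unadjusted p below 0.05 it held 8 of the 52 and 1526 of all 14666. The block turned the group log2 FC of MMP2 to 0.66 and that of ADAM10 to 0.022.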

Other observations

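The collagenases and matrilysins had at most 3 counts in any NAM. These genes were chosen after their values were seen and were not tested between PPGLs and NAMs. Between the tumor groups MMP8 was tested and did not pass (log2 FC -3.69, edgeR FDR-adjusted p = 0.178). It passed by DESeq2's Wald test (adjusted p = 0.0562) and, by edgeR, without group 1 replicate 1 (log2 FC -5.11, FDR-adjusted p = 0.0959). MMP1, a collagenase, had at most 0.0763 CPM in NAMs and 0.638 CPM in PPGL group 1, and ranged from 0 to 32.8 CPM in PPGL group 2 (median 0.133), with 83.5% of the CPM of all tumors in group 2 replicate 11. MMP8, the collagenase of neutrophils, had at most 0.114 CPM in NAMs and 1.05 CPM in PPGL group 1, and reached 20.96 CPM in PPGL group 2 (median 0.490), with 56.7% of the CPM of all tumors in the same tumor. MMP7, a matrilysin, was read in no other tumor than that one, at 3.66 CPM. MMP13, the remaining collagenase, stayed at or below 0.433 CPM in all 29 samples.

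The collagenases and the matrilysin MMP7 lie in a block of MMP genes. In CanFam3.1, MMP13, MMP12, MMP3, MMP1, MMP8, MMP27, MMP20 and MMP7 lie in this order at chr5:28850522-29196153, and of these 8 only MMP12 had enough counts to be tested between tumors and NAMs. A block of ADAM genes at chr16:25567301-26551122 holds ADAM18, ADAM2, ADAM32 and ADAM9, of which ADAM9 alone was tested there, with a median of 88.0 CPM in NAMs against 0.0769 CPM for ADAM18, 0 for ADAM2 and 0.197 CPM for ADAM32.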
